A study of Mus musculus with 8 samples.

Results

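The genes described here are 41 regulators of chromatin and DNA methylation, chosen by name. They comprise 3 DNA methyltransferases, 3 TET dioxygenases, 4 subunits of Polycomb repressive complex 2 (PRC2), 8 of Polycomb repressive complex 1 (PRC1) and 3 genes of the Polycomb deubiquitinase. They further comprise 6 histone lysine methyltransferases, 4 histone lysine demethylases, 5 histone deacetylases, 2 acetyltransferases, the arginine methyltransferase Prmt1 and 2 subunits of the SWI/SNF remodelling complex. A gene was read from the array row whose annotation gave that single symbol, and all 41 were measured, of 19938 genes with such a row. For 6 of the 41 genes with several rows, the brightest row by its mean over all arrays was taken.

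RNA was measured on Affymetrix mouse gene arrays in sorted bone marrow cells of mice aged 7 weeks, backcrossed to C57BL6. Knockout (KO) mice carried Vav1-iCre and were Cbfb(F/F), with both alleles of Cbfb flanked by recombination sites. Control (Het) mice carried the same Cre and were Cbfb(F/+), so that the controls too had Cre and 1 floxed allele, and no wild-type group was used here. The Vav1 promoter drives Cre throughout the blood system from the stem cell stage on. LSK cells are lineage-negative cells with high Sca-1 and Kit, the compartment of stem and multipotent progenitor cells, and GMP cells are granulocyte-macrophage progenitors. Combining genotype and cell type gave 4 groups (Het LSK, Het GMP, KO LSK and KO GMP) of 2 arrays each, and 200000 cells were sorted for a sample. The arrays are called biological replicates and the study used 2 mice of each genotype, but the labels do not tie an array to a mouse.

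Cbfb encodes the shared beta subunit of core-binding factor, which raises the DNA affinity of the RUNX proteins at sites with the core TGTGGT or TGCGGT. DNA methyltransferases place methyl groups on cytosine, and TET dioxygenases oxidise them, which starts their removal. PRC2 methylates lysine 27 of histone H3 and PRC1 ubiquitinates histone H2A, both linked to gene silencing, whereas methylation of lysine 4 and acetylation by Ep300 and Crebbp accompany active genes. Several of these regulators, among them Dnmt3a, Tet2, Asxl1, Ezh2 and Kmt2a, are recurrent targets of mutation or rearrangement in myeloid neoplasms.

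Values are log2 expression levels made by robust multi-array averaging (RMA), and a difference of 1 on this scale is a doubling. Differences were tested with limma over all 21789 single-symbol rows, and a gene was called where the Benjamini-Hochberg adjusted p was below 0.05. The same fit tested the interaction, which is the KO minus Het difference in GMP minus that in LSK. Cbfb itself, read by a row whose position relative to the deleted part is not known here, was at 7.56 and 7.56 in Het LSK and 6.93 and 6.98 in KO LSK. In GMP it was at 7.53 and 7.65 in Het and 6.49 and 6.96 in KO. It fell by 0.86 in GMP (adjusted p = 0.013), while the LSK difference of -0.60 did not pass (adjusted p = 0.0557). Over the single-symbol rows, correlations ran from 0.990 to 0.995 within a group and from 0.955 to 0.983 between groups. The mean of the GMP markers separated the cell types in both genotypes, although in each genotype 6 of the 8 were called higher in GMP and 2 lower. The cell types lay closer together in KO by the mean of the LSK markers, but these genes went different ways. Between KO and Het LSK, 4 of the 7 were called lower and 1 higher, from -3.41 to 2.40. The mean level of 8 GMP markers was 10.6 to 10.9 in GMP arrays and 8.40 to 8.87 in LSK arrays, and that of 7 LSK markers was 8.05 and 8.40 in Het LSK, 7.67 and 7.12 in KO LSK, 5.45 and 5.56 in Het GMP and 6.53 and 6.38 in KO GMP. Ly6a, which encodes Sca-1, had no row used here. In bulk RNA, fewer cells of a type and less RNA per cell cannot be told apart.

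All 41 regulators lay above the median row in Het LSK, and 40 of 41 did so in each of the other groups, where Hdac9 was the exception. RMA gives no detection call. The members' median level was 7.75 in Het LSK, 7.74 in KO LSK, 7.36 in Het GMP and 7.49 in KO GMP, against a median row of 4.92 to 5.08. Of the 41, 17 were called in at least 1 of the 5 comparisons and 24 in none. The plot of levels by array shows the 17.

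**Figure D1:**
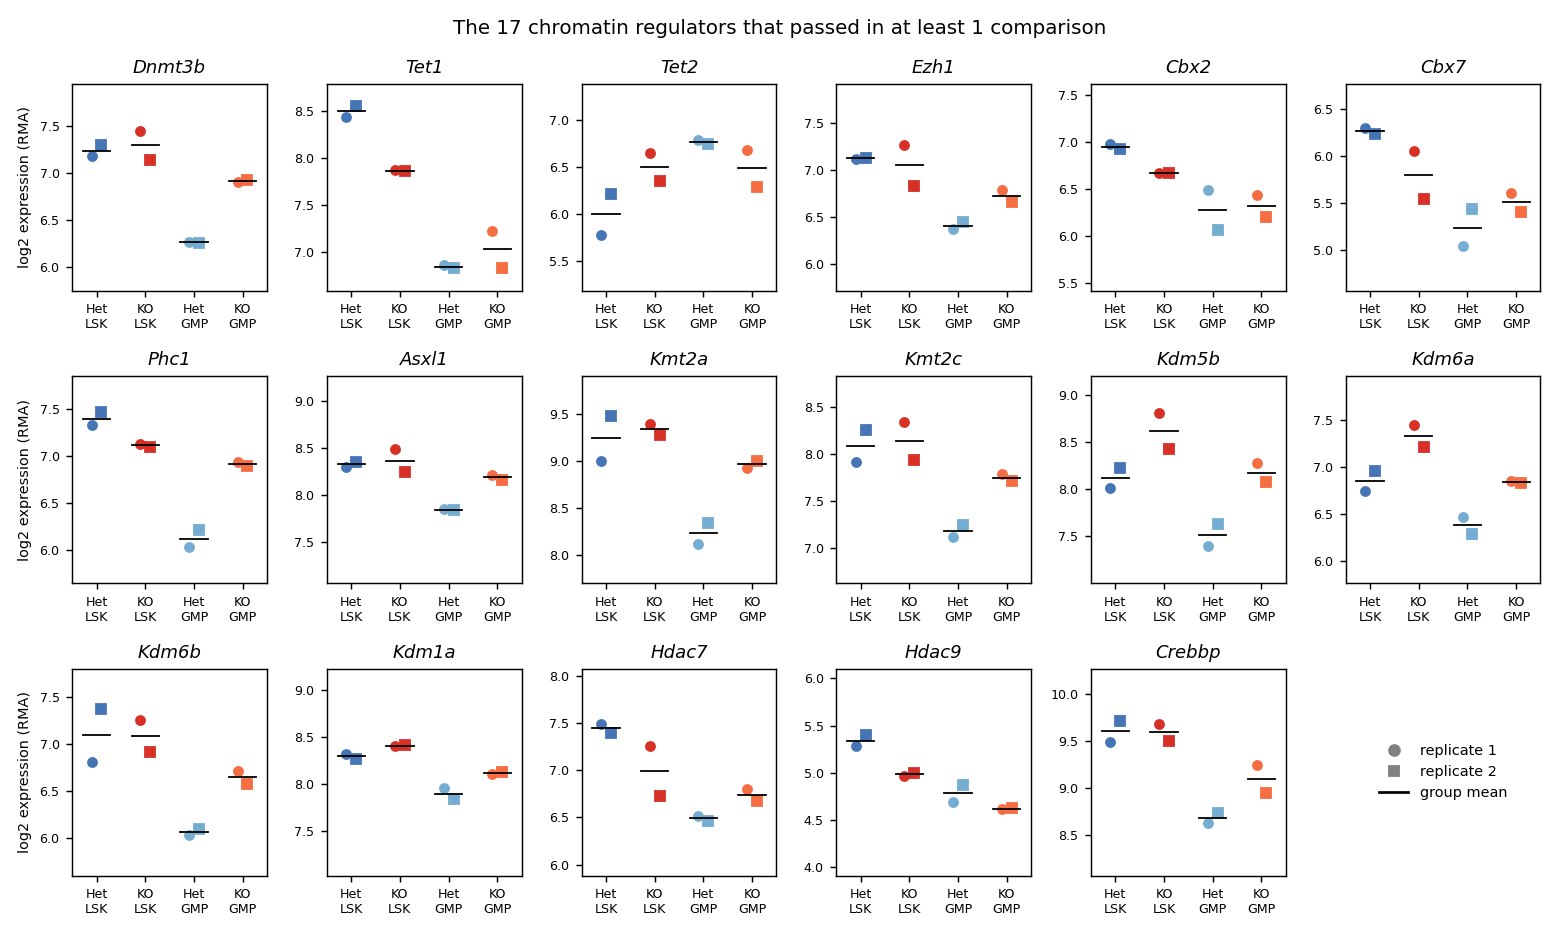
Levels on the log2 scale (vertical axes, RMA) of the 17 called regulators in the 4 groups (horizontal axes), with a circle for replicate 1, a square for replicate 2 and a bar for the group mean. Every panel spans the same range, and in 16 of the 17, all but Tet2, the Het GMP mean lies below the Het LSK mean.

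The 4 genes called between KO and Het were Tet1, Phc1, Dnmt3b and Kmt2a, and their promoters are shown because core-binding factor acts through DNA. The 250 bases before the RefSeq start (build GRCm38.p6) are given on the gene's strand with CpG dinucleotides, the sites of DNA methylation, in capitals. The windows are chr10:62887325-62887574 on the minus strand for Tet1, chr6:122340228-122340477 on the minus strand for Phc1, chr2:153649199-153649448 on the plus strand for Dnmt3b and chr9:44881290-44881539 on the minus strand for Kmt2a.
Tet1: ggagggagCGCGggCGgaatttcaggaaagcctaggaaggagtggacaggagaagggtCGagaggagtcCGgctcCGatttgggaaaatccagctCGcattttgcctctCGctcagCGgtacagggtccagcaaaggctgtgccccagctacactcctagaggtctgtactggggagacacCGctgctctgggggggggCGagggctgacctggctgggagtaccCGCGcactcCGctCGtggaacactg
Phc1: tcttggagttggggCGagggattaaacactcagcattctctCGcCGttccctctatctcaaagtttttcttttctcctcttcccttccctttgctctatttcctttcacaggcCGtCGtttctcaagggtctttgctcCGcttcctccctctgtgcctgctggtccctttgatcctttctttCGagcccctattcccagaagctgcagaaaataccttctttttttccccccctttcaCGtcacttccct
Dnmt3b: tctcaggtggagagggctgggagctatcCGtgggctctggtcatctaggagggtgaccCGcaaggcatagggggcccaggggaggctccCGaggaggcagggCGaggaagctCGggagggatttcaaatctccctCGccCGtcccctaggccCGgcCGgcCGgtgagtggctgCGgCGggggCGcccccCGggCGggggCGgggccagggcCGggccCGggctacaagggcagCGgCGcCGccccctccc
Kmt2a: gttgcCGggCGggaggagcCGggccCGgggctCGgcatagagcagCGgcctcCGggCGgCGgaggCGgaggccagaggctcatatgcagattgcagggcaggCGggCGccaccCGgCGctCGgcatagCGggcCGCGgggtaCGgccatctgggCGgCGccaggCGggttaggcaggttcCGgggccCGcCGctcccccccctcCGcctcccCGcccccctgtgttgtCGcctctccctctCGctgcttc
These windows held 15 CpG in Tet1, 8 in Phc1, 21 in Dnmt3b and 29 in Kmt2a. The median was 21.5 over the 48 windows of the 37 members with an entry and 6 over all 32851 promoter windows of this length. The letters TGTGGT or TGCGGT, searched on both strands, were in none of the 4 windows. They were in 5 of the 48 members' windows (10.4%), those of Asxl1, Ezh1, Ezh2, Hdac2 and Setd1a, and in 18.6% of all windows. A match or its absence describes these letters only.

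The first comparison asked how the regulators differed between the progenitor stages in control animals. In Het cells, 16 of the 41 regulators fell from LSK to GMP and 1, Tet2, rose. That is 41.5% of the members called in either direction, where 17.5% of all rows were called, with 9.60% of rows lower and 7.90% higher. Among rows above the median level, 27.8% were called. With 1 of the Het arrays left out, the members called were 10 and 9 without Het LSK replicate 1 and 2 (13.1% and 10.2% of rows), and 7 and 10 without Het GMP replicate 1 and 2 (9.54% and 10.9% of rows). Both Het GMP arrays lay below both Het LSK arrays for 27 members (28.2% of rows did so), and the members' median difference was -0.24 against 0.01 over all rows. Subtracting each array's median moved the median of all rows up by 0.16. The members' median was then -0.09, with 12 members called lower and 1 higher, and 67.1% of called rows were higher instead of 45.1%.

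Among the DNA methylation enzymes, the largest difference was that of Tet1, which oxidises methylated cytosine. Tet1 was at 8.44 and 8.55 in Het LSK and at 6.87 and 6.83 in Het GMP. Both GMP arrays were thus far below both LSK arrays, and Tet1 fell by 1.65 (SE 0.14, adjusted p = 9.72e-05), 3.13-fold. Its other rows on the array also fell in this comparison, by 1.76 (adjusted p = 7.25e-05) and 1.50 (adjusted p = 0.000133). Dnmt3b, a de novo methyltransferase, was at 7.18 and 7.29 in Het LSK and at 6.27 and 6.25 in Het GMP. It fell by 0.98 (SE 0.13, adjusted p = 0.00109). Tet2 moved the other way, from 5.78 and 6.21 to 6.79 and 6.74, and rose by 0.77 (SE 0.19, adjusted p = 0.0227). That call ended without Het LSK replicate 1 (adjusted p = 0.136), Het GMP replicate 1 (0.122) or Het GMP replicate 2 (0.0942). The maintenance methyltransferase Dnmt1 differed by 0.08 (95% interval -0.27 to 0.43), Dnmt3a by -0.22 (-0.51 to 0.07) and Tet3 by -0.07 (-0.36 to 0.23), and none passed.

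Of the Polycomb genes, 4 of 12 were lower. Phc1, a Polyhomeotic subunit of canonical PRC1, was at 7.34 and 7.46 in Het LSK and 6.04 and 6.21 in Het GMP. It fell by 1.27 (SE 0.12, adjusted p = 0.000138), 2.42-fold. Cbx proteins bind trimethylated lysine 27 of histone H3 and bring PRC1 to it. Cbx7 was at 6.29 and 6.24 in Het LSK against 5.04 and 5.44 in Het GMP, and fell by 1.03 (SE 0.19, adjusted p = 0.00639). Cbx2 was at 6.98 and 6.93 against 6.49 and 6.07, and fell by 0.67 (adjusted p = 0.0182). Ezh1, a PRC2 methyltransferase found in non-dividing cells as well, was at 7.12 and 7.13 against 6.37 and 6.45, and fell by 0.72 (adjusted p = 0.0111). Its paralogue Ezh2 was at 9.04 and 9.01 against 8.97 and 8.83, a difference of -0.13 (95% interval -0.52 to 0.27). The PRC2 core subunits Eed (-0.23) and Suz12 (0.17) and the PRC1 genes Bmi1, Ring1, Rnf2, Cbx8 and Phc2 (-0.26 to 0.14) did not pass. The Cbx7 call ended without Het GMP replicate 1 (adjusted p = 0.0621), that of Cbx2 without either Het LSK array (0.0825 and 0.079) or Het GMP replicate 2 (0.126), and that of Ezh1 without any 1 of the 4 Het arrays (0.0524 to 0.0811). In the Polycomb deubiquitinase, Asxl1, which activates the enzyme Bap1, was at 8.30 and 8.35 against 7.85 and 7.84. It fell by 0.48 (adjusted p = 0.0258), which ended without any 1 Het array (0.0784 to 0.13) and with array medians subtracted (0.0807). Asxl2 (-0.25) and Bap1 (-0.09) did not pass.

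The lysine methyltransferases split by family member. Kmt2a, the lysine 4 methyltransferase also called MLL1, was at 9.00 and 9.48 in Het LSK and 8.12 and 8.35 in Het GMP. It fell by 1.01 (SE 0.17, adjusted p = 0.00335). Kmt2c, an enhancer lysine 4 methyltransferase, went from 7.91 and 8.25 to 7.12 and 7.25 and fell by 0.90 (SE 0.17, adjusted p = 0.00614), a call that ended without Het LSK replicate 2 (0.0542) or Het GMP replicate 1 (0.0559). Kmt2d, its closest relative, was at 8.87 and 8.85 against 8.89 and 9.10, a difference of 0.14 (95% interval -0.18 to 0.46). Setd1a, Setd2 and the lysine 79 methyltransferase Dot1l differed by 0.09, -0.23 and -0.01, and none passed.

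All 4 lysine demethylases fell. Kdm6b, which removes methyl groups from lysine 27 of histone H3, was at 6.81 and 7.37 in Het LSK and 6.03 and 6.10 in Het GMP, and fell by 1.03 (SE 0.19, adjusted p = 0.00616). Kdm5b, a lysine 4 demethylase, went from 8.01 and 8.22 to 7.39 and 7.63 (-0.60, adjusted p = 0.0365). The GMP arrays were below the LSK arrays for both genes. Kdm6a, the X-linked lysine 27 demethylase, went from 6.75 and 6.96 to 6.48 and 6.29 (-0.47, adjusted p = 0.046), and Kdm1a, also called LSD1, from 8.32 and 8.27 to 7.96 and 7.84 (-0.40, adjusted p = 0.0397). With array medians subtracted, Kdm5b (0.0726), Kdm6a (0.12) and Kdm1a (0.171) no longer passed. Each of those 3 calls also ended without any 1 of the 4 Het arrays (0.0623 to 0.254) or either KO GMP array (0.0515 to 0.0751). The Kdm6b call ended without Het GMP replicate 1 (0.0507).

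Of the acetylation enzymes, 3 of 7 fell. Hdac7, a class IIa deacetylase, was at 7.50 and 7.40 in Het LSK and 6.52 and 6.46 in Het GMP, and fell by 0.96 (SE 0.17, adjusted p = 0.00472). Hdac9, of the same class, went from 5.28 and 5.40 to 4.69 and 4.87, and fell by 0.56 (adjusted p = 0.0111). Hdac9 was the dimmest member, and its call ended without Het LSK replicate 2 (0.0808) or Het GMP replicate 1 (0.0987). The class I deacetylases Hdac1, Hdac2 and Hdac3 differed by -0.06, 0.02 and -0.06, with 95% intervals within -0.41 and 0.29. The coactivator acetyltransferase Crebbp was at 9.50 and 9.71 against 8.63 and 8.74, and fell by 0.92 (SE 0.15, adjusted p = 0.00263). Its paralogue Ep300 was at 8.63 and 8.90 against 8.38 and 8.46, a difference of -0.34 that did not pass (adjusted p = 0.124). Prmt1 (0.33), the SWI/SNF ATPase Smarca4 (-0.39, adjusted p = 0.063) and Arid1a (-0.24) did not pass either.

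The calls of Tet1, Dnmt3b, Phc1, Kmt2a, Hdac7 and Crebbp in this comparison held with each of the 8 arrays left out in turn and under each alternative run, save a 2-fold threshold that Dnmt3b, Hdac7 and Crebbp miss. Cell type markers moved beside them. The mean level of 7 lymphoid markers was 8.46 and 7.97 in Het LSK and 3.95 and 4.18 in Het GMP, and that of 6 megakaryocyte markers 6.49 and 6.47 against 5.22 and 5.59. For 6 monocyte and macrophage markers the mean was 6.29 and 6.24 against 6.95 and 7.12, with 5 called higher and 1 lower (-2.53). For 6 mast cell and basophil markers it was 5.33 and 5.62 against 6.74 and 6.90, with 4 called higher and 1 lower. The part of these markers' cells in the members' differences was not tested.

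**Figure D2:**
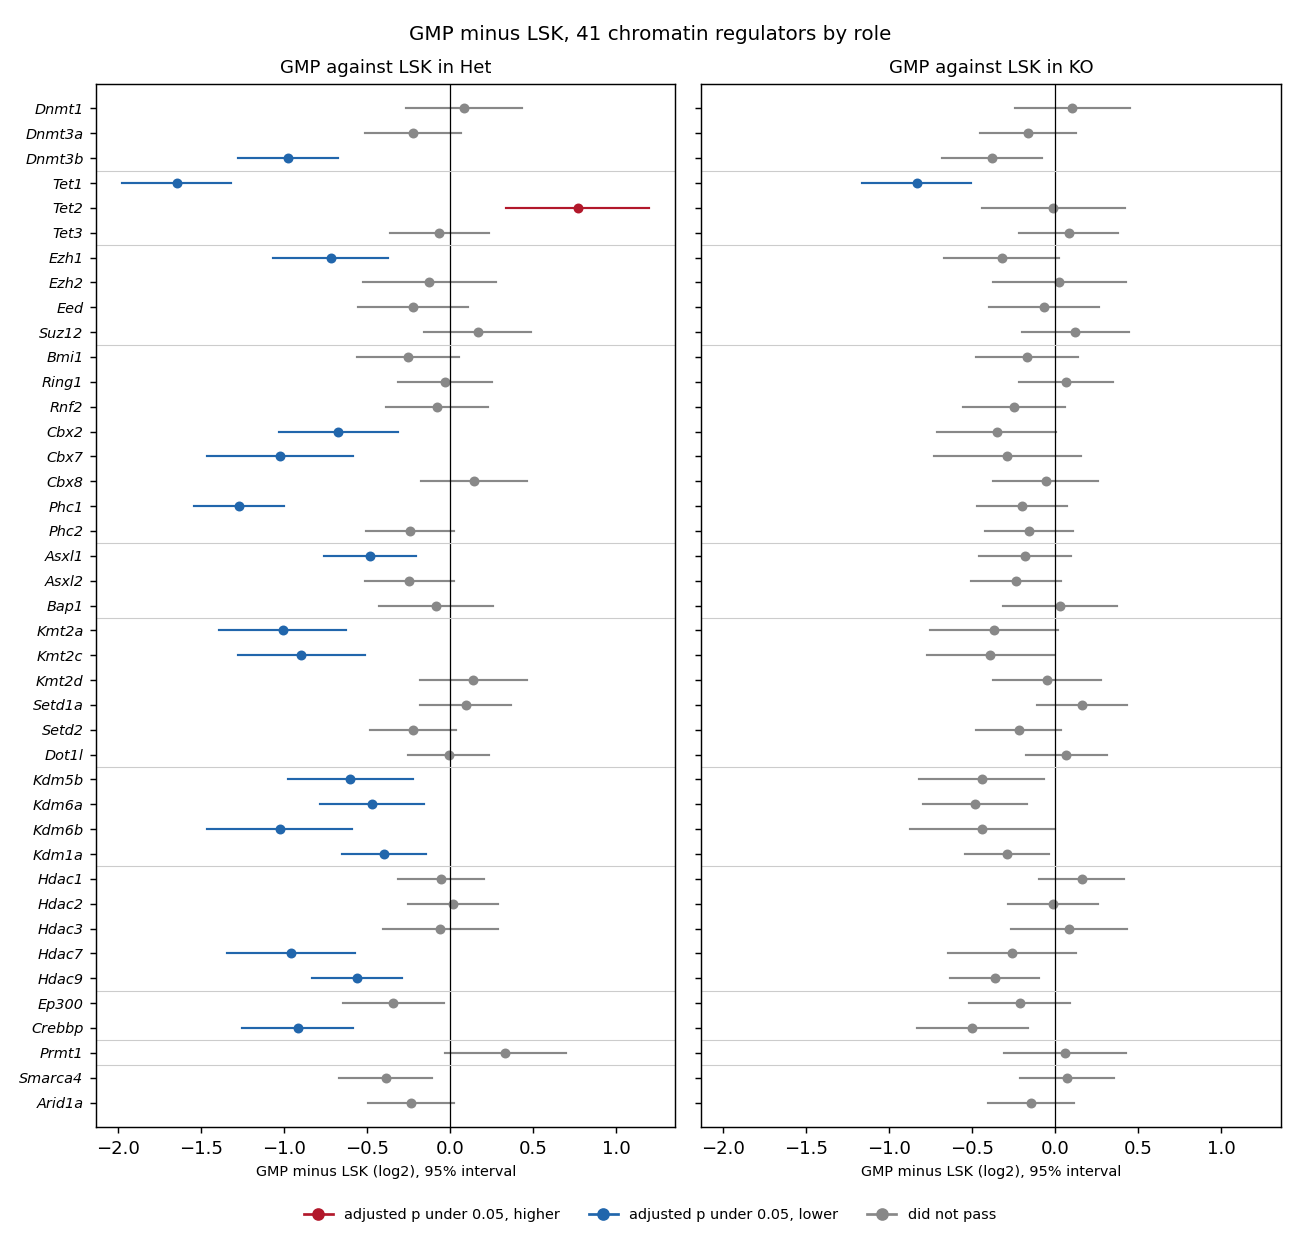
Difference between GMP and LSK (horizontal axis, log2, with its 95% interval) for the 41 regulators ordered by role, in Het cells on the left and in KO cells on the right. In Het, 16 regulators lie to the left with an adjusted p under 0.05 (blue) and Tet2 to the right (red), while in KO Tet1 alone is coloured.

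In KO cells the same stage comparison called 1 regulator. Tet1 was at 7.87 and 7.86 in KO LSK and 7.22 and 6.84 in KO GMP. From LSK to GMP it fell by 0.84 (adjusted p = 0.0104, SE 0.14). Both GMP arrays were lower, and the call ended without KO GMP replicate 2 (adjusted p = 0.077) and with only the KO arrays in the fit (0.0594). The other Tet1 rows fell by 0.73 (adjusted p = 0.0206) and 0.69 (adjusted p = 0.0225). The share of members called was 2.44%, against 6.05% of all rows (2.39% lower, 3.66% higher). At an unadjusted p below 0.05, 9 members were lower and 0 higher in limma, against 9.80% and 9.42% of all rows. The members' median difference was -0.17 against -0.02 over all rows.

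The KO group means share no array with the Het group means. The fit that called the Het differences, however, took its spread from the KO arrays too. The genes called in Het were therefore not chosen independently of the KO arrays, and the effect of this on their overlap was not tested. All 16 regulators that fell in Het had a lower mean in KO GMP than in KO LSK, and for 14 of them both KO GMP arrays lay below both KO LSK arrays, as did 26.0% of rows. Their KO differences ran from -0.84 to -0.18 with a median of -0.37, while the Het median, on which they were chosen, was -0.91. Crebbp was at 9.68 and 9.51 in KO LSK and 9.25 and 8.95 in KO GMP, a difference of -0.50 (adjusted p = 0.0913). Kdm6a was at 7.45 and 7.21 against 6.85 and 6.84 (-0.49, adjusted p = 0.0819). The 4 lysine demethylases again all had negative differences (-0.49 to -0.29), with no overlap of arrays and 0 called by limma (4 at an unadjusted p below 0.05). Cbx7 and Hdac7 were the 2 whose KO arrays overlapped. Tet2, higher in Het GMP, was at 6.65 and 6.35 in KO LSK and 6.68 and 6.29 in KO GMP, a difference of -0.01 (95% interval -0.44 to 0.42).

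Whether the stage difference itself depended on genotype was tested by the interaction, which called Phc1 alone of the 41 (2.44%, against 2.29% of all rows, 1.69% positive and 0.601% negative). At an unadjusted p below 0.05, 7 members were positive and 1, Tet2, negative, against 7.72% and 5.40% of all rows. The interaction of Phc1 was 1.07 (SE 0.17, adjusted p = 0.0136). It ended without Het LSK replicate 2 (adjusted p = 0.0602), Het GMP replicate 1 (0.0718), KO GMP replicate 1 (0.0611) or KO GMP replicate 2 (0.0571). Tet1 had an interaction of 0.81 (SE 0.20, adjusted p = 0.0917), and of its other rows 1 passed (1.03, adjusted p = 0.0402) and 1 did not (0.81, adjusted p = 0.0817). Tet2 had one of -0.78 (adjusted p = 0.23), Cbx7 0.74 (0.273), Hdac7 0.70 (0.235), Kmt2a 0.64 (0.276), Dnmt3b 0.60 (0.184) and Smarca4 0.46 (0.287). For the regulators whose interaction did not pass, a call in 1 genotype or cell type and not in the other is therefore not shown to be a difference between them. Over all 41 the interaction was positive for 33, and for 20 with array medians subtracted.

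The loss of Cbfb in LSK cells was addressed by KO against Het in LSK, where 1 regulator, Tet1, fell. Its levels of 7.87 and 7.86 in KO lay below the 8.44 and 8.55 in Het, a fall by 0.63 (SE 0.14, adjusted p = 0.0304), 1.55-fold. The other Tet1 rows fell by 0.90 (adjusted p = 0.00568) and 0.73 (adjusted p = 0.0131). The call of the row used here ended without any 1 of the 4 LSK arrays (adjusted p = 0.0787 to 0.166), without either Het GMP array (0.0597), and with only the LSK arrays in the fit (0.0549). The 1 member is 2.44% of the 41, against 7.73% of all rows (4.71% lower, 3.02% higher), and the members' median difference was 0.00 against 0.01 over all rows. With array medians subtracted, 52.4% of called rows were higher instead of 39.0%.

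At an unadjusted p below 0.05, 12 members differed in LSK, 5 higher and 7 lower in KO, against 19.6% of all rows (8.77% higher, 10.8% lower), and except for Tet1 none passed the adjustment. Among the higher were the demethylases Kdm6a, at 6.75 and 6.96 in Het and 7.45 and 7.21 in KO (0.47, adjusted p = 0.0813), and Kdm5b, at 8.01 and 8.22 against 8.81 and 8.43 (0.50, adjusted p = 0.122). For both genes the KO arrays lay above the Het arrays. Kdm6a is X-linked, and 3 sex-chromosome genes were looked at after the values were seen. Over all 8 arrays, Xist was at 2.67 to 3.26, well below the median row of 4.92 to 5.08, and Eif2s3y at 7.18 to 7.82. The genotypes overlapped within each cell type, save for Xist in LSK. There it was at 2.908 and 2.672 in Het and 2.911 and 3.262 in KO (0.30, adjusted p = 0.328 in limma). Uty, the Y-linked paralogue of Kdm6a, was at 6.536 and 6.537 in Het LSK and 6.98 and 6.58 in KO LSK, and at 6.06 and 6.03 in Het GMP and 6.70 and 6.41 in KO GMP. As for Kdm6a, its KO arrays lay above its Het arrays in each cell type, and neither difference passed (0.25, adjusted p = 0.459 in LSK, and 0.51, adjusted p = 0.118 in GMP). Tet2 (0.50), Rnf2 (0.36), which is the catalytic ubiquitin ligase of PRC1, and Asxl2 (0.31) were the other 3 on the higher side (adjusted p = 0.18 to 0.194). On the lower side were 3 of 5 histone deacetylases. Hdac1 was at 9.37 and 9.45 in Het and 8.97 and 9.11 in KO (-0.37, adjusted p = 0.0934). Hdac7 was at 7.50 and 7.40 against 7.26 and 6.73 (-0.45, adjusted p = 0.178), and Hdac9 at 5.28 and 5.40 against 4.967 and 4.9985 (-0.36, adjusted p = 0.127). Their KO arrays were all below their Het arrays. Smarca4 was at 9.20 and 9.04 against 8.65 and 8.81 (-0.39, adjusted p = 0.105), Cbx7 differed by -0.47 and Phc1 by -0.29. The Hdac7 difference passed without KO LSK replicate 1 (-0.72, adjusted p = 0.0189). Over all rows, 22.8% had both KO LSK arrays above both Het LSK arrays and 22.7% below, so separation alone is common with 2 arrays a group.

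Markers of other cells differed between these groups. The mean of 7 lymphoid markers was 8.46 and 7.97 in Het LSK and 5.38 and 4.41 in KO LSK, with all 7 called lower. The mean of 6 megakaryocyte markers was 6.49 and 6.47 in Het and 8.93 and 8.67 in KO, with 4 called higher and 1 lower. The mean of the monocyte and macrophage markers went from 6.29 and 6.24 to 4.91 and 4.75. Of these 6 markers, 3 were called lower and 0 higher, with differences from -3.41 to 0.23. The mean of the mast cell and basophil markers went from 5.33 and 5.62 to 6.48 and 6.39 (2 called higher and 1 lower). The means of lineage genes of mature cells (4.85 and 5.41 against 4.99 and 4.60) and of erythroid markers (5.97 and 5.81 against 5.61 and 5.83) overlapped. Of the 4 erythroid markers, however, 1 was called higher and 1 lower. The part of these cell types in the Tet1 difference was not tested.

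In GMP cells, 3 regulators were higher in KO and 0 lower (0 lower also at an unadjusted p below 0.05 in limma, with 11 higher, against 8.71% of all rows lower and 8.55% higher). The 3 called are 7.32% of the members, against 6.02% of all rows (3.45% higher, 2.57% lower), and the members' median difference was 0.11 against -0.02 over all rows. Among rows above the median level, 9.48% were called (5.86% higher, 3.63% lower), and at an unadjusted p below 0.05 in limma 12.5% were higher. Phc1 was at 6.04 and 6.21 in Het GMP and 6.93 and 6.89 in KO GMP. It rose by 0.79 (SE 0.12, adjusted p = 0.00466), 1.73-fold. In LSK its KO levels of 7.13 and 7.09 were below the Het levels of 7.34 and 7.46, a difference of -0.29 (adjusted p = 0.23), and the difference between the cell types is the called interaction given above. Kmt2a was at 8.12 and 8.35 in Het GMP and 8.93 and 9.00 in KO GMP and rose by 0.73 (SE 0.17, adjusted p = 0.0372). Dnmt3b was at 6.27 and 6.25 against 6.90 and 6.92 and rose by 0.65 (SE 0.13, adjusted p = 0.0208). In all 3 the KO arrays lay above the Het arrays. The Phc1 call ended without Het GMP replicate 1 (adjusted p = 0.0556). The Dnmt3b and Kmt2a calls ended without any 1 of the 4 GMP arrays (0.109 to 0.135 and 0.0951 to 0.256), and that of Kmt2a also after quantile normalization (0.0531). These 3 genes were also lower in Het GMP than in Het LSK, but both comparisons use the same Het GMP arrays, so the findings are not independent.

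The other 8 members higher at an unadjusted p below 0.05 did not pass. The nearest to the threshold was Kdm5b, at 7.39 and 7.63 in Het GMP and 8.28 and 8.08 in KO GMP (0.66, adjusted p = 0.053), which passed without either KO LSK array (0.0266). Kdm6a was at 6.48 and 6.29 against 6.85 and 6.84 (0.46, adjusted p = 0.102) and Kdm6b at 6.03 and 6.10 against 6.72 and 6.58 (0.58, adjusted p = 0.14). With Kdm1a (0.22), all 4 demethylases had KO arrays above the Het arrays, as did 23.4% of rows. Kmt2c was at 7.12 and 7.25 against 7.78 and 7.71 (0.56, adjusted p = 0.103), and Crebbp at 8.63 and 8.74 against 9.25 and 8.95 (0.41, adjusted p = 0.177). Asxl1 (0.34), Asxl2 (0.31) and Tet3 (0.31) complete the 8. Tet1, the gene that fell in KO LSK, was at 6.87 and 6.83 in Het GMP and 7.22 and 6.84 in KO GMP, a difference of 0.18 (95% interval -0.15 to 0.51). Tet2 was at 6.79 and 6.74 against 6.68 and 6.29 (-0.28, 95% interval -0.71 to 0.15).

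Beside these values, all 6 megakaryocyte markers were called higher in KO GMP (mean 5.22 and 5.59 in Het, 9.17 and 9.44 in KO) and all 6 monocyte and macrophage markers lower (6.95 and 7.12 against 5.24 and 4.58). The mean of the 7 lymphoid markers was 3.95 to 4.18 in every GMP array, but its genes went different ways. Il7r rose from 3.40 and 3.42 in Het to 5.58 and 5.30 in KO (2.03, adjusted p = 0.00206), whereas Vpreb1 (-1.45, adjusted p = 0.214) and Flt3 (-0.90, adjusted p = 0.122) had negative differences that did not pass. Erythroid markers had a mean of 5.81 and 5.58 in Het and 6.38 and 6.61 in KO, mast cell and basophil markers 6.74 and 6.90 against 6.84 and 6.47 (2 called higher and 2 lower of 6, from -1.90 in Ms4a2 to 1.61 in Gata2), and lineage genes 5.76 and 6.30 against 5.39 and 4.90. The 7 LSK markers had a higher mean in KO GMP, with 2 called higher and 0 lower. Their differences were positive for 4 and negative for 3, from -0.90 to 3.415. The part of these cells in the Phc1, Kmt2a and Dnmt3b differences was not tested.

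**Figure D3:**
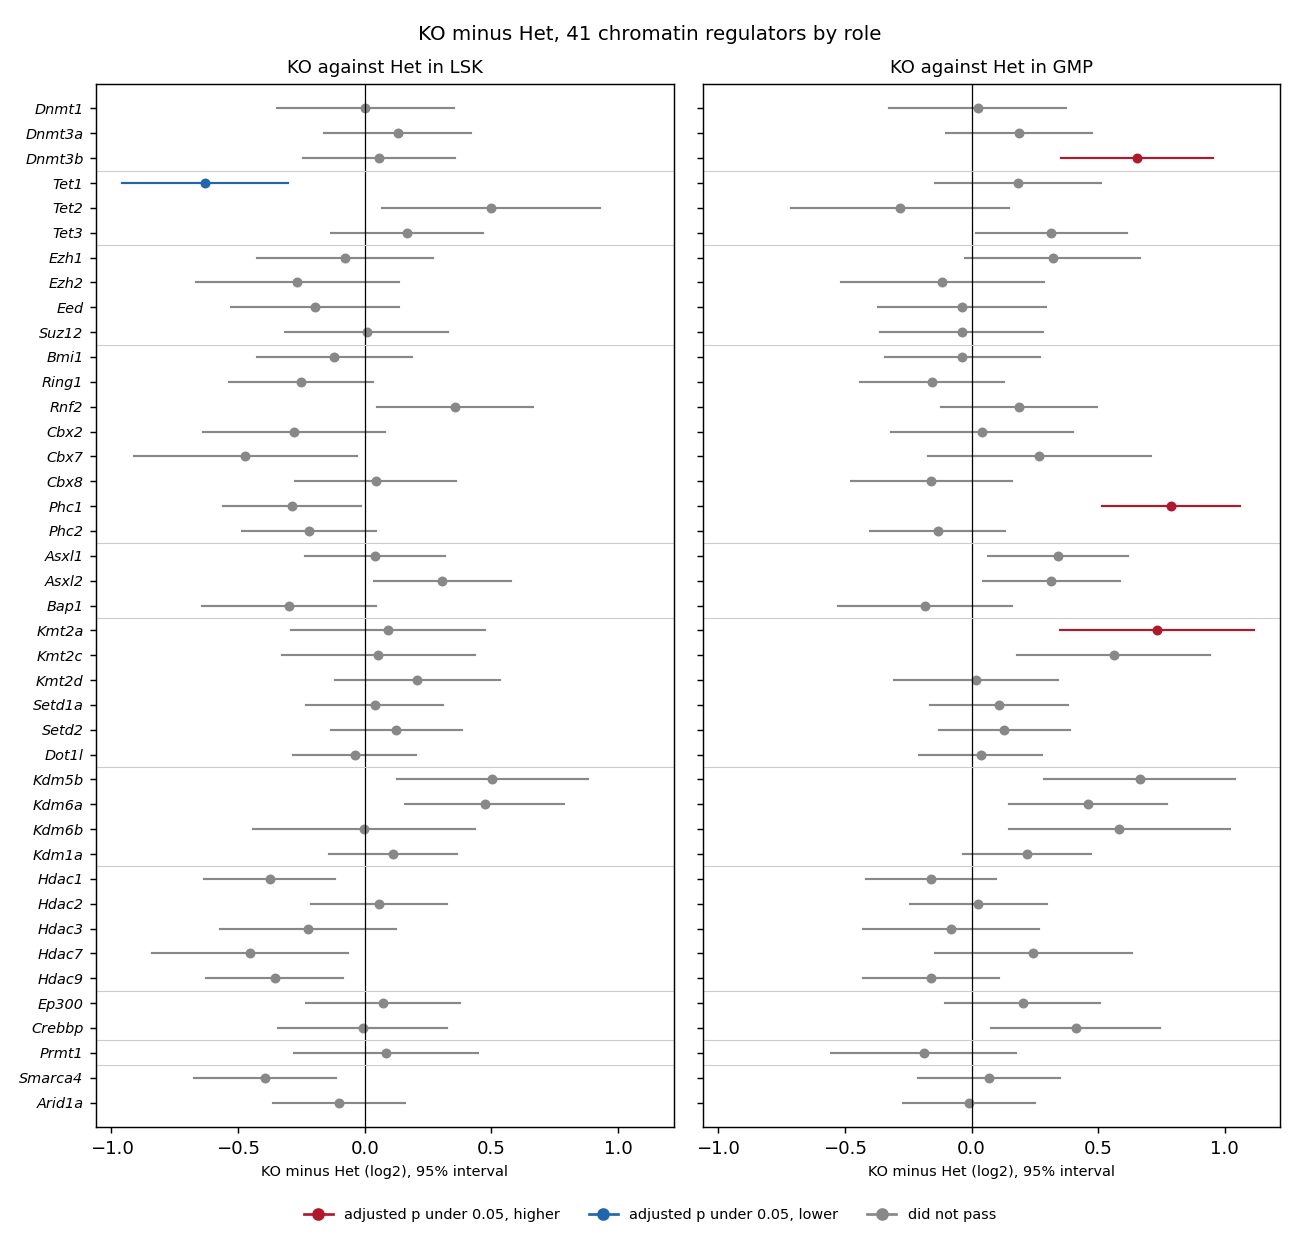
Difference between KO and Het (horizontal axis, log2, with its 95% interval) for the 41 regulators ordered by role, in LSK on the left and in GMP on the right. Tet1 alone is called in LSK, lower (blue), and Dnmt3b, Phc1 and Kmt2a are called in GMP, higher (red).

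The 24 regulators called in no comparison included most of the abundant members. Dnmt1 stood between 9.42 and 9.81 on all 8 arrays and Hdac2 between 9.14 and 9.34. Dot1l had the narrowest spread, from 6.99 to 7.06. The 95% intervals of the KO minus Het difference of Dot1l ran from -0.28 to 0.20 in LSK and from -0.21 to 0.28 in GMP, and those of Dnmt1 from -0.35 to 0.35 and from -0.32 to 0.37. For the PRC2 methyltransferase Ezh2 they ran from -0.67 to 0.13 and from -0.51 to 0.28.

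The KO LSK replicates stood apart from each other in many members. The levels differed by over 0.3 between the replicates for 14 of 41 members in KO LSK, against 5 in Het LSK, 4 in Het GMP and 2 in KO GMP. The same count over all rows was not made, so the gap is not shown to be particular to these genes. Of the 14, 9 were higher in KO LSK replicate 1 (Dnmt3b, Ezh1, Cbx7, Bap1, Kmt2c, Kmt2d, Kdm5b, Kdm6b and Hdac7) and 5 were lower there (Dnmt1, Ezh2, Eed, Bmi1 and Prmt1). Hdac7 was at 7.26 in replicate 1 and 6.73 in replicate 2, and Cbx7 at 6.05 and 5.54. Ezh2 was at 8.48 and 9.04, and Eed at 7.13 and 7.53. The mean of 19 proliferation genes was 8.03 in KO LSK replicate 1 and 8.80 in replicate 2, against 8.77 and 8.56 in Het LSK, 9.00 and 8.95 in Het GMP and 8.65 and 8.90 in KO GMP. Replicate 1 of KO LSK was thus the lowest of the 8 arrays in these genes. The 14 members plotted beside them were chosen by this gap, and the part of proliferation in the members' differences was not tested.

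**Figure D4:**
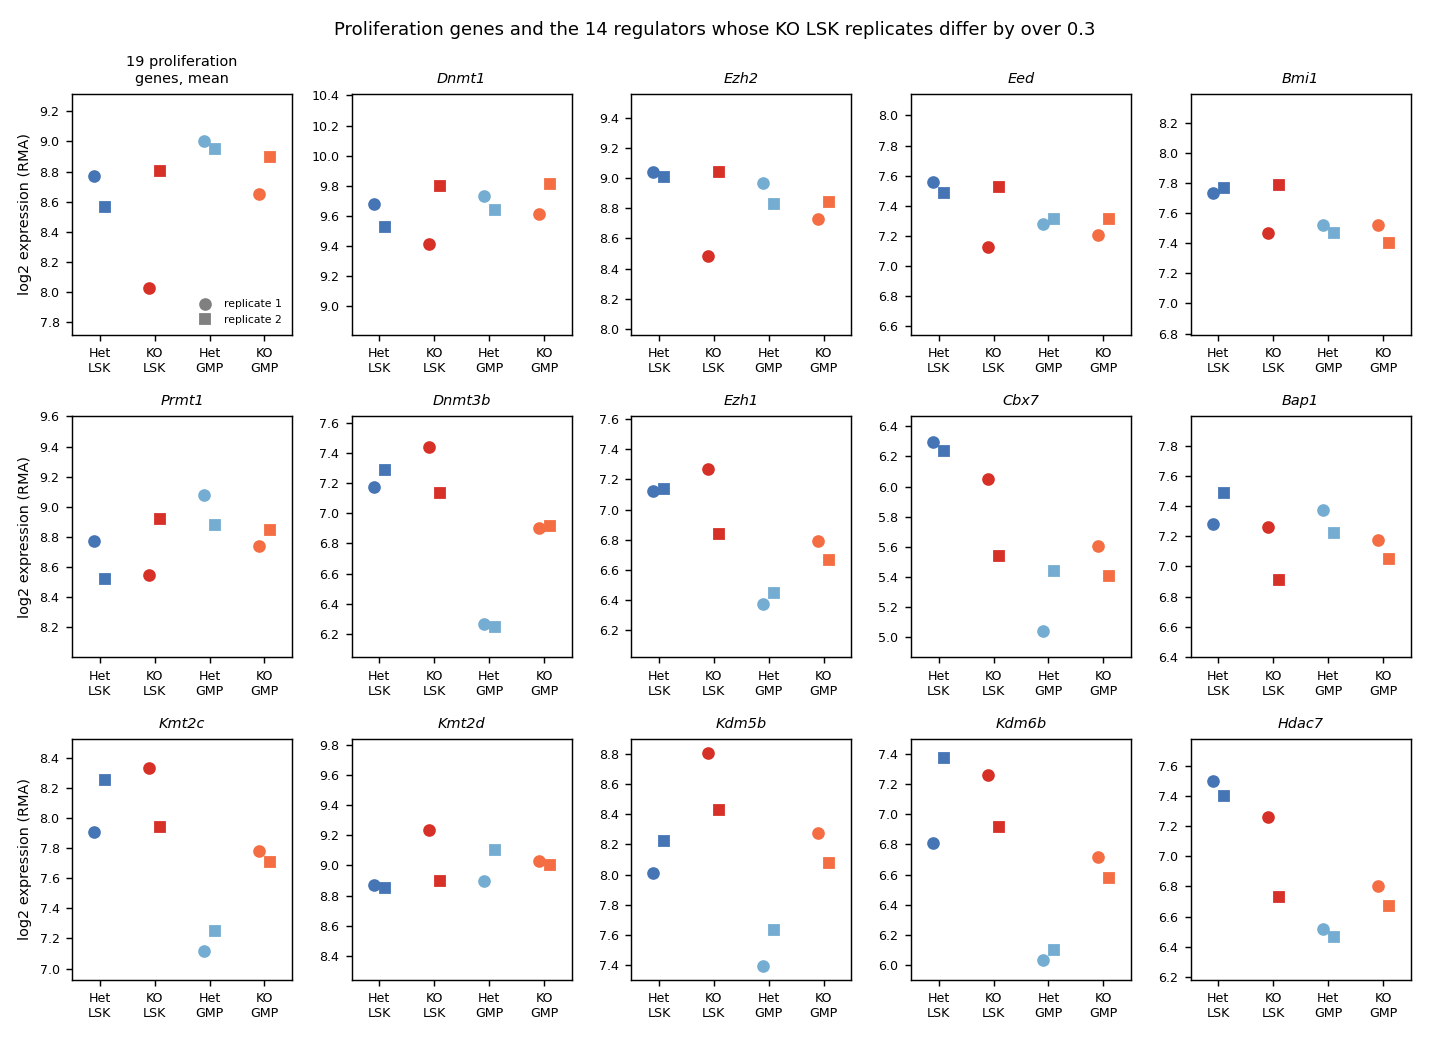
Mean log2 level of 19 proliferation genes and the log2 levels of the 14 regulators whose KO LSK replicates differ by over 0.3 (vertical axes, RMA) in the 4 groups (horizontal axes), with a circle for replicate 1 and a square for replicate 2. KO LSK replicate 1 is the lowest array for the proliferation genes (8.03), and it lies below replicate 2 for 5 of the regulators, such as Ezh2 (8.48 and 9.04), and above it for 9, such as Hdac7 (7.26 and 6.73).

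A wider list of 133 chromatin genes outside the 41, of which 124 were measured, gave the surroundings of these results. In Het, 19 of the 124 fell from LSK to GMP and 7 rose (21.0% called, near the 17.5% of all rows, with a median difference of -0.12). Of these 26 calls, 17 remained without Het LSK replicate 1, 10 without Het LSK replicate 2, 9 without Het GMP replicate 1 and 13 without Het GMP replicate 2. Mecom, a PR-domain zinc finger factor of stem cells that is also an LSK marker, fell by 3.50, the acetyltransferase Kat6b by 1.26, the corepressor subunit Mta3 by 1.25, and Prdm16 by 1.16 (adjusted p = 4.5e-05 to 0.000564). Idh1, which makes the 2-oxoglutarate that TET enzymes use, went from 6.35 and 6.31 to 8.50 and 8.50 and rose by 2.17 (adjusted p = 0.000129). In KO, 3 of 124 rose and 2 fell from LSK to GMP (4.03%, against 6.05% of all rows). Idh1 was among the former (1.52, adjusted p = 0.00265) and Mecom among the latter (-1.10, adjusted p = 0.0453). The KO call of Mecom ended without any 1 array but KO LSK replicate 2 (0.0584 to 0.186).

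Between KO and Het LSK, 7 of the 124 fell and 0 rose in limma (5.65%, against 7.73% of all rows). At an unadjusted p below 0.05 in limma, 3 were higher and 19 lower, against 8.77% and 10.8% of all rows. Mecom went from 6.54 and 6.96 to 4.75 and 3.82 and fell by 2.47. Rcor2, a partner of Kdm1a, went from 5.85 and 6.17 to 4.66 and 4.58 and fell by 1.39. Prdm16 fell by 1.16, the PRC1 subunit Pcgf5 by 0.96, the deacetylase Sirt3 by 0.92, the SWI/SNF ATPase Smarca2 by 0.77 and Bcl7c by 0.51 (adjusted p = 0.000283 to 0.0303 over the 7). In KO LSK, Prdm16 (5.27 and 5.33) overlapped its range over the GMP arrays (5.25 to 5.33), and Rcor2 (4.66 and 4.58) lay just below its own (4.79 to 4.89). In GMP, 0 of the 124 fell in KO in limma. At an unadjusted p below 0.05, 16 were higher and 7 lower, against 8.55% and 8.71% of all rows. Mta3 alone was called higher (0.806% of the list, against 6.02% of all rows), and rose from 6.51 and 6.77 to 7.29 and 7.49 (0.75, adjusted p = 0.0107). That call ended without Het GMP replicate 1 (adjusted p = 0.106) or KO GMP replicate 2 (0.107). The interaction was called, positive, for 5 of the 124 (4.03%, against 2.29% of all rows, 1.69% positive and 0.601% negative). They were Mecom 2.39, Rcor2 1.46, Prdm16 1.15, Mta3 1.06 and Smarca2 1.01. The LSK call of Smarca2 ended without Het LSK replicate 2 (0.0537) that of Sirt3 without Het LSK replicate 1 (0.061), and that of Bcl7c without any 1 LSK array (0.0653 to 0.136) or either KO GMP array (0.0557). The Mecom interaction ended without Het LSK replicate 2, either Het GMP array or KO GMP replicate 2 (0.0532 to 0.0634). That of Mta3 ended without either Het LSK array, KO LSK replicate 2, Het GMP replicate 1 or KO GMP replicate 2 (0.0576 to 0.107). That of Smarca2 ended without any 1 array but Het LSK replicate 1 and KO LSK replicate 1 (0.052 to 0.114), and with array medians subtracted (0.0507).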

How the data were processed

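RNA of 8 samples was hybridised to arrays whose deposited values are log2 expression levels that the authors made with RMA, per the submitters' processing notes. Its software and version and the rows' genome build were not given in the sources used here. RMA assumes like distributions on all arrays, and amplification before labelling can alter differences. Of 35556 rows, 21789 carried 1 gene symbol, 1621 several and 12146 none. limma 3.58.1 (R 4.3.3) fitted 4 group means to the 8 arrays (4 residual degrees of freedom) with eBayes, two-sided, and Benjamini-Hochberg adjustment over the 21789 rows. The fit was tested on simulated data. Values of arrays were not identical in any pair. Named were all members called in any comparison, examples per role for the rest, and some of the called genes of the wider chromatin list. The members, the chromatin list and the marker lists (LSK, GMP, lineage, megakaryocyte, erythroid, mast cell and basophil, lymphoid, monocyte and macrophage, proliferation) were chosen with earlier results of these data known. Array annotation paired rows with symbols, and promoter sequences are from RefSeq (GRCm38.p6); Kdm6b, Hdac1, Hdac3 and Cbx2 had no entry used here. Alternatives were array medians subtracted, quantile normalization, dim rows left out, all rows tested, a mean-variance trend, 2 groups only, the mean of all rows per gene, a 2-fold threshold, the replicate number as a block, and each array left out. No other batch was examined, since the labels give none. P-values measure the spread between 2 arrays a group, whose number limits the precision.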

Additional observations from a re-analysis of the deposited data

Results flagged for a closer look

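The response of Phc1 to genotype differed between the cell types by the interaction test. The KO minus Het difference was -0.29 in LSK and 0.79 in GMP, so that the GMP difference minus the LSK difference was 1.075 on the log2 scale (SE 0.17, adjusted p = 0.0136 in limma). The KO arrays were both lower than the Het arrays in LSK, and both higher in GMP. The cause was not tested, and the adjusted p was 0.0571 to 0.0718 in the 4 fits without Het LSK replicate 2, Het GMP replicate 1 or either KO GMP array.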

How the results depend on the processing

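Of the 23 member differences called as reported, 6 held under every alternative run other than a 2-fold threshold, all of them GMP against LSK in Het (Tet1, Dnmt3b, Phc1, Kmt2a, Hdac7, Crebbp). Over 366 such alternative values of the 23, 285 kept their call, 81 kept the direction without passing and 0 reversed. Leaving out each array in turn gave 994 to 1614 rows and 0 to 1 members called for KO against Het in LSK, 634 to 1586 and 0 to 4 in GMP, 2078 to 4486 and 7 to 17 for GMP against LSK in Het, 579 to 1539 and 0 to 1 in KO, and 223 to 705 and 0 to 2 for the interaction. The lone array of a group was then taken to vary like the other groups. With a 2-fold threshold, rows called were 731 for KO against Het in LSK, 620 in GMP, 1348 in the Het stage comparison and 520 in the KO one, and members 0, 0, 5 and 0. With all rows of the table tested, members called were 0 for KO against Het in LSK, 1 in GMP (784 rows), 11 for GMP against LSK in Het, and 0 for the interaction (182 rows), with 756 rows for GMP against LSK in KO. With dim rows left out, which removed the row of Hdac9, members called were 3 for KO against Het in LSK and 3 for GMP against LSK in KO. The mean of all rows per gene kept the member counts except for KO against Het in GMP (4, with Kdm5b added). A mean-variance trend gave 3 members for KO against Het in LSK and 2 for GMP against LSK in KO, and array medians gave 2 for KO against Het in LSK. With the arrays of 2 groups only, KO against Het gave 1071 rows and 0 members in LSK and 6 members in GMP, and GMP against LSK in KO 691 rows and 0 members; the interaction needs all 4 groups. For these counts, the cause was not tested. Array medians moved the interaction's median of all rows by -0.14 and its called rows from 73.8% to 58.4% positive. Same-numbered replicates did not deviate together in all pairs of groups (correlations of -0.14 to 0.18). A fit with the replicate block called 1 member for KO against Het in LSK, 3 in GMP, 14 for GMP against LSK in Het (without Kdm5b, Kdm6a and Kdm1a), 1 in KO and 1 for the interaction. The depth of an array is its signal, and of these genes Hdac9 alone lay below the median row in any group.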
